A study of Mus musculus with 4 samples.

Results

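Liver secreted protein genes encode the proteins that hepatocytes, the main cells of the liver, release into the blood. The set comprised 10 gene symbols out of 24971 genes in the count files: Alb, Afp, Apoa1, Apoa2, Apob, Fga, Fgb, Fgg, Ahsg and Trf. It was put together because Alb had been found higher in libraries labelled mutant while Ttr, another liver product, was lower there. The contrast between the groups therefore chose the set, and its values for the members are given as a description: calls of the fit over all genes are counted once, and nothing is read from them. RNA had been sequenced from pooled neural tubes of C57BL/6 mouse embryos at E12.5, in 2 libraries labelled Lbx1Δ/Δ, a homozygous change in the homeobox gene Lbx1, and 2 wild-type (WT) libraries. Each pool held tubes of a single genotype and litter, so the labels give the pool, not the embryo, as the unit of replication. The labels do not describe the Lbx1 lesion, and they do not say whether pools with the same replicate number shared a litter.

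In the embryo, hepatocyte precursors bud from the foregut and make albumin and its fetal relative alpha-fetoprotein, along with the apolipoproteins that carry lipids and the fibrinogen chains that form clots. The visceral endoderm of the yolk sac makes several of the same proteins, and transferrin and transthyretin are also made in the choroid plexus, the secretory epithelium of the brain. Liver tissue also houses blood formation at this stage. The spinal cord itself is not a textbook source of albumin.

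The libraries held 16853984 to 20579803 counts, and 3 counts corresponded to 0.146 to 0.178 CPM, the usual scaling of a count to its library total. That limit, like the intervals given here, covers counting error only. Lbx1 had counts of 1946 and 6520 in libraries 1 and 2 labelled Lbx1Δ/Δ, against 819 and 1379 in WT libraries 1 and 2. Its level is therefore no check of the labels, and the mutant libraries are named throughout as labelled. Of 11 genes that define the labelled tissue, the 8 with a single RefSeq accession each had 752 or more counts in total. Of the 3 with several accessions, Pax6 was at 0 in all libraries, Elavl4 had 3 counts in total and Dcx 22. Tubb3, a neuronal tubulin, reached 2021 and 3748 CPM in libraries 1 and 2 labelled Lbx1Δ/Δ, against 1766 and 3048 CPM in the WT pair. Nes, an intermediate filament of progenitors, reached 1073 and 1069 CPM in those labelled Lbx1Δ/Δ, against 1175 and 996 CPM in WT. In a bulk pool, fewer cells of a type and less RNA per cell cannot be told apart.

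Alb and Afp are neighbouring genes on chromosome 5 and, of the members with 1 accession, had the widest relative ranges between libraries. Their promoter windows, from 250 bases before to 50 bases after the start in RefSeq's GRCm38.p6 table, are shown because both genes were high in the same library. Capitals mark CCAAT, a box found in many promoters, searched on both strands (ATTGG on the reverse). The windows lie at chr5:90460620-90460919 for Alb and chr5:90490464-90490763 for Afp, both on the plus strand.
Alb: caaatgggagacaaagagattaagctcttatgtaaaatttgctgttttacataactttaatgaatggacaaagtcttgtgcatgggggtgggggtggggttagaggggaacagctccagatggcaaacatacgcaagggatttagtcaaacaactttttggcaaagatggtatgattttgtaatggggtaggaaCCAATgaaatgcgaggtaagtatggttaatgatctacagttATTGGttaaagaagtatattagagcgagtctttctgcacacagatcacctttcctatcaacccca
Afp: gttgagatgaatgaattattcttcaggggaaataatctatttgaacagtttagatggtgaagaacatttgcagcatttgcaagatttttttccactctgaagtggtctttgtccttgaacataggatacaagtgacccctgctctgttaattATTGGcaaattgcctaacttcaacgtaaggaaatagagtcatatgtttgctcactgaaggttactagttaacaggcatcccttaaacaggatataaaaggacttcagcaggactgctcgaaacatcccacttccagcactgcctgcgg
The letters began 56 and 15 bases before the start in Alb, the nearer match on the reverse strand, and 98 bases before it in Afp, on the reverse strand. They were found in the windows of 4 of the 9 members with an entry, namely Alb, Afp, Apoa2 and Ahsg, and in 37.4% of all 32851 windows of 300 bases. A match of this kind describes the letters of a window and not the use of a site.

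Alb encodes serum albumin, the most abundant protein of plasma. It had 54 and 230 counts in libraries 1 and 2 labelled Lbx1Δ/Δ, against 17 and 89 counts in WT libraries 1 and 2. Scaled to library total this was 3.13 and 13.6 CPM in the libraries labelled Lbx1Δ/Δ, against 0.826 and 5.25 CPM in WT. The groups overlapped, because library 1 labelled Lbx1Δ/Δ lay below WT library 2. The ratio of the group means was 2.76, with 3.79 within number 1 and 2.60 within number 2, and edgeR fitted a log2 difference of 1.45 (SE 1.09). This is the value the set was picked on. Libraries numbered 2 exceeded those numbered 1 by 4.36-fold among those labelled Lbx1Δ/Δ and by 6.36-fold in WT. Without library 2 labelled Lbx1Δ/Δ the fitted log2 difference was 0.054, without WT library 1 it was 0.67 and without WT library 2 it was 3.30.

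Afp encodes alpha-fetoprotein, the fetal counterpart of albumin, which fetal liver and yolk sac release. It had 16 and 93 counts in libraries 1 and 2 labelled Lbx1Δ/Δ, and 17 and 42 counts in WT libraries 1 and 2, or 0.928 and 5.52 CPM against 0.826 and 2.48 CPM. The groups overlapped, with both libraries numbered 1 at nearly the same level and library 2 labelled Lbx1Δ/Δ highest. The ratio of libraries labelled Lbx1Δ/Δ to WT was 1.12 within number 1 and 2.23 within number 2, and the fitted log2 difference was 0.95 (SE 0.99). Leaving out library 2 labelled Lbx1Δ/Δ gave a fitted difference of −0.82, the opposite direction. Number 2 exceeded number 1 by 5.95-fold among libraries labelled Lbx1Δ/Δ and by 3-fold in WT.

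The share of Alb in the summed Alb and Afp counts varied between libraries, with intervals that all overlapped. Alb made up 77.1% of the summed Alb and Afp counts in library 1 labelled Lbx1Δ/Δ (Clopper-Pearson 95% interval 65.6% to 86.3%) and 71.2% in library 2 labelled Lbx1Δ/Δ (65.9% to 76.1%). In WT libraries 1 and 2 the shares were 50% (32.4% to 67.6%) and 67.9% (59.2% to 75.8%). WT library 1 stood lowest, on 34 counts of both genes together. Its interval met that of library 1 labelled Lbx1Δ/Δ only from 65.6% to 67.6%. Overlap of intervals does not show that the shares were alike. Summed, Alb and Afp reached 4.06 and 19.2 CPM in libraries 1 and 2 labelled Lbx1Δ/Δ, and 1.65 and 7.73 CPM in WT libraries 1 and 2. The ratio of libraries labelled Lbx1Δ/Δ to WT was 2.46 within number 1 and 2.48 within number 2, while number 2 stood 4.72-fold above number 1 in the group labelled Lbx1Δ/Δ and 4.68-fold above it in WT.

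**Figure D1:**
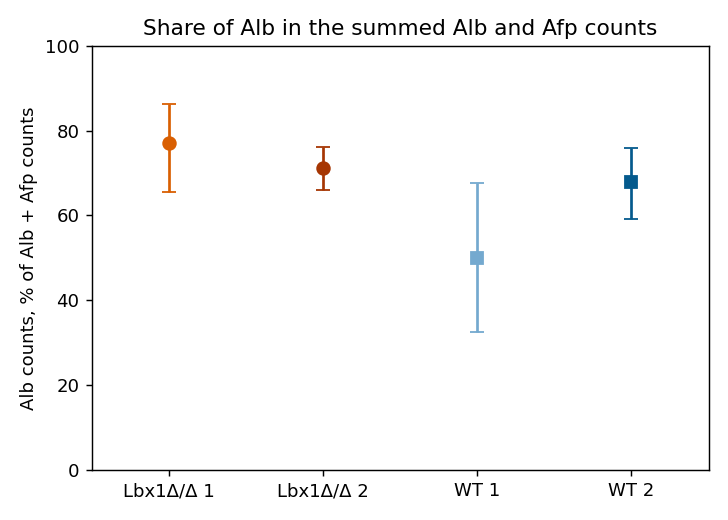
Share of Alb in the summed counts of Alb and Afp (vertical axis, %) in each library, with exact 95% binomial intervals as bars; circles are libraries labelled Lbx1Δ/Δ and squares are WT. WT library 1 sits at 50% with the widest interval, and the other 3 libraries sit between 67.9% and 77.1%.

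The lipid carriers were close to the counting limit. Apoa1, the main protein of high-density lipoprotein, had 8 and 9 counts in libraries 1 and 2 labelled Lbx1Δ/Δ, against 6 and 5 counts in WT libraries 1 and 2. Its levels of 0.464 and 0.534 CPM in libraries labelled Lbx1Δ/Δ lay above the 0.292 and 0.295 CPM of WT without overlap. The same was true of 11.3% of the 10757 genes with enough counts to be tested, which do not include Apoa1. Apob, the scaffold of low-density lipoprotein, had 10 and 16 counts in libraries 1 and 2 labelled Lbx1Δ/Δ and 16 and 9 counts in WT libraries 1 and 2, so the groups overlapped (log2 difference 0.20, SE 0.55). Apoa2, the second protein of high-density lipoprotein, had 2 counts in library 2 labelled Lbx1Δ/Δ and 0 in library 1 labelled Lbx1Δ/Δ and in both WT libraries. No fold is given for Apoa2, since all values lie under 3 counts.

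The fibrinogen genes Fga, Fgb and Fgg, which encode the alpha, beta and gamma chains of the clotting protein, lie side by side on chromosome 3. Fgb had 4 and 6 counts in libraries 1 and 2 labelled Lbx1Δ/Δ, and 2 and 6 counts in WT libraries 1 and 2, values that overlap. Fga and Fgg had 0 counts in all 4 libraries, as did Ahsg, the gene of the carrier protein fetuin-A. Hepatocytes are known to make the fibrinogen chains together.

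The number of RefSeq transcripts listed for a gene went with its counts. The 6 members with 1 accession (Alb, Afp, Apoa1, Apob, Fgb and Trf) all had counts, while the 4 with several (Apoa2 with 5, Fga with 2, Fgg with 2 and Ahsg with 4) had 2 counts in total. Over all 87 liver genes listed here, 25 of 34 with several accessions were at 0 in every library, against 6 of 53 with 1 accession. Across the whole files, 38.9% of genes with several accessions and 30.2% of those with 1 were at 0. The 0 counts of Fga, Fgg and Ahsg thus do not show that these transcripts were missing from the pools.

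**Figure D2:**
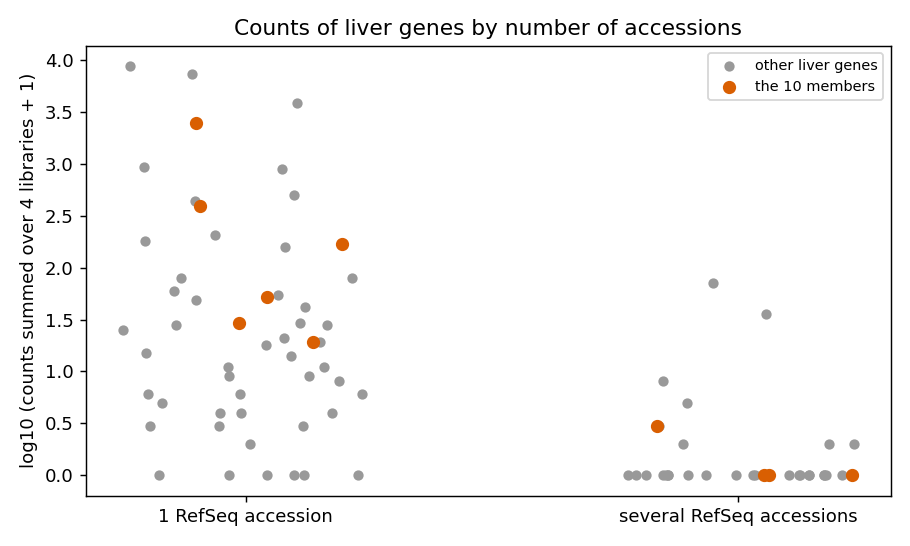
Counts summed over the 4 libraries (log10 after adding 1) for 87 liver genes with 1 RefSeq accession or with several; orange points are the 10 members and grey points other liver genes, spread sideways at random for visibility. Members with 1 accession all lie above 0, while 3 of the 4 with several lie at 0.

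Trf, which encodes the iron carrier transferrin, held most of the reads of the set and, of the members with 1 accession, had the narrowest relative range. It had 477 and 671 counts in libraries 1 and 2 labelled Lbx1Δ/Δ, and 662 and 635 counts in WT libraries 1 and 2. The levels of 27.7 and 39.8 CPM in libraries labelled Lbx1Δ/Δ enclosed the 32.2 and 37.5 CPM of WT, and the fitted log2 difference was −0.06 (SE 0.26). Trf made up 83.8% and 65.3% of the counts of the set in libraries 1 and 2 labelled Lbx1Δ/Δ, against 91.9% and 80.8% in WT libraries 1 and 2. Per kilobase of transcript, its mean level over the 4 libraries was 13.3 RPKM (CPM per kilobase), against 2.81 for Alb, 1.18 for Afp, 0.383 for Apoa1, 0.0682 for Fgb and 0.0509 for Apob. In the order of these levels, Trf exceeded Alb in each library. The ranges of Alb, Afp and Apoa1 over the libraries overlapped, and Fgb and Apob were not separable at 2 to 16 counts a library.

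**Figure D3:**
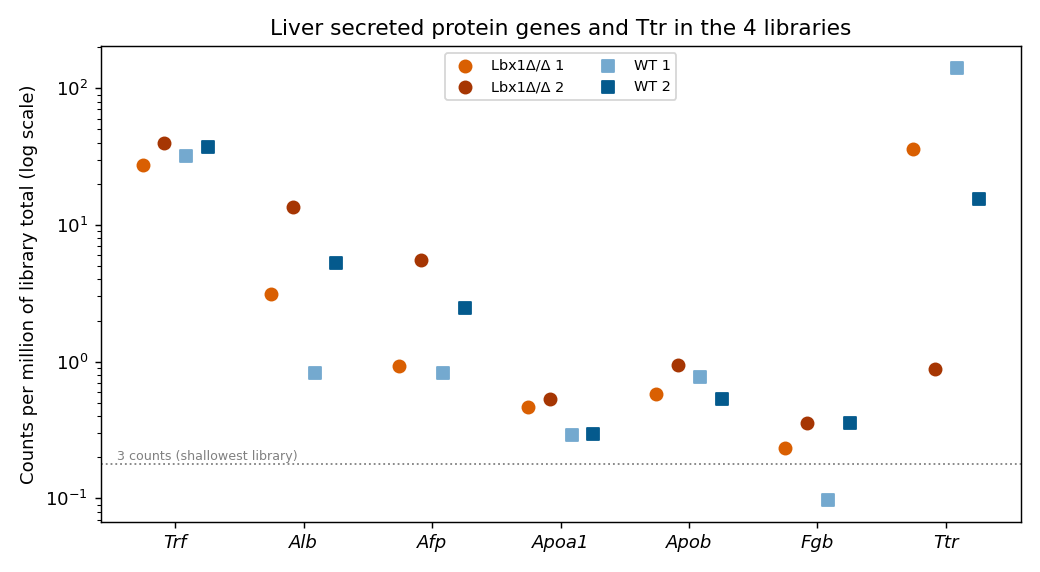
Level of each counted member and of Ttr in each library, in CPM on a log axis; circles are libraries labelled Lbx1Δ/Δ, squares are WT, and the dotted line marks 3 counts in the shallowest library (0.178). Alb and Afp are highest in library 2 labelled Lbx1Δ/Δ, Trf stays within 27.7 to 39.8, and Ttr is lowest in library 2 labelled Lbx1Δ/Δ.

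Over all 10 members the summed level was 33.0 and 60.9 CPM in libraries 1 and 2 labelled Lbx1Δ/Δ, and 35.0 and 46.4 CPM in WT libraries 1 and 2. The groups overlapped, the log2 ratio of the means was 0.21, and it turned to −0.30 without library 2 labelled Lbx1Δ/Δ. With Trf left out, the other 9 members summed to 5.33 and 21.1 CPM in libraries 1 and 2 labelled Lbx1Δ/Δ, and to 2.82 and 8.91 CPM in WT libraries 1 and 2. This sum had a log2 ratio of 1.17, which was −0.14 without library 2 labelled Lbx1Δ/Δ. With Alb left out as well, the sum was 2.20 and 7.48 CPM in libraries 1 and 2 labelled Lbx1Δ/Δ, and 1.99 and 3.66 CPM in WT libraries 1 and 2, with a log2 ratio of 0.78 that turned to −0.36 without the same library.

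Of the 10 members, 4 passed the low-count filter: Alb, Afp, Apob and Trf. On genotype alone edgeR's quasi-likelihood test called 0 of them, and 0 of all 10757 genes (0%), with 55 genes at an unadjusted p below 0.05. The count of calls was also 0 for DESeq2 (33 genes below 0.05 unadjusted) and for limma-voom (61 genes). Blocking on the replicate number, edgeR called 1 member, Alb, as higher, against 0.27% of all genes. Since Alb was picked on this contrast, nothing is read from that count. In both groups number 2 held over 2-fold more Alb and Afp than number 1 did, a pattern of 4.82% of tested genes, and all 4 had their highest value in library 2 labelled Lbx1Δ/Δ, as did 34.8% of tested genes.

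Ttr, the gene of the thyroid hormone and retinol carrier transthyretin, went the other way from Alb. It had 622 and 15 counts in libraries 1 and 2 labelled Lbx1Δ/Δ, against 2920 and 263 counts in WT libraries 1 and 2, or 36.1 and 0.890 CPM against 142 and 15.5 CPM. The groups overlapped, since library 1 labelled Lbx1Δ/Δ exceeded WT library 2. The libraries numbered 2 held 0.0247 times the level of number 1 in the group labelled Lbx1Δ/Δ and 0.109 times in WT, where Alb was several-fold higher in number 2 in both groups. Clic6, a chloride channel protein of that epithelium, had 139 and 19 counts in libraries 1 and 2 labelled Lbx1Δ/Δ and 542 and 58 counts in WT libraries 1 and 2. Without Ttr, the other 14 choroid plexus genes summed to 51.2 and 26.6 CPM in libraries 1 and 2 labelled Lbx1Δ/Δ, and to 91.4 and 37.1 CPM in WT libraries 1 and 2, the same order of libraries as for Ttr. Of the 9 choroid plexus genes tested, Ttr included, 0 were called on genotype alone, 0 had a higher and 9 a lower fitted value, with a median log2 difference of −0.72 beside −0.0026 over all genes tested. With a replicate block 2 of the 9 were called lower, Ttr and Clic6, against 0.586% of all tested genes. The labels do not pair the numbers of this block. Ttr was part of the choice of the set, and it is also among the 9 lower values and in the median. Clic6 was named after its values were seen. Nothing is therefore read from these calls, and no p is given for them.

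Of 41 further liver secreted genes, 16 have several accessions and 15 of these were at 0 in all libraries, which is no measure of their transcripts. Of the 25 with 1 accession, 2 were at 0 in all libraries (Apoa4 and Hamp), 8 had fewer than 10 counts in total and 17 had 10 or more. Vtn, the gene of the matrix and plasma protein vitronectin, and Ttr held most of their reads, with Vtn at 90.0 and 173 CPM in libraries 1 and 2 labelled Lbx1Δ/Δ and at 86.9 and 142 CPM in WT libraries 1 and 2. Without these, the remaining 39 genes summed to 11.9 and 15.1 CPM in libraries 1 and 2 labelled Lbx1Δ/Δ, and to 11.6 and 16.8 CPM in WT libraries 1 and 2. That sum differed between the groups by ratios of 1.02 within number 1 and 0.900 within number 2. Alb and Afp together had 2.46 and 2.48, but Alb was picked for this difference and held most of their counts. Nothing is therefore read from the gap between the 2 sums, and Afp alone had ratios of 1.12 and 2.23. Gene by gene, 9 of the 17 further secreted genes with 10 or more counts in total were highest in library 2 labelled Lbx1Δ/Δ. In both groups 8 of the 17 were higher in number 2, as Alb was. Neither count has a matching share over all genes, since the 34.8% above covers only genes past the low-count filter. Only 9 of the 41 passed it, and a gene of few counts can reach 10 mainly through library 2 labelled Lbx1Δ/Δ. Itih2, an inhibitor heavy chain that binds hyaluronan, had 31 and 62 counts in libraries labelled Lbx1Δ/Δ and 38 and 72 counts in WT libraries, and the clotting factor gene F5 had 58 and 13 counts in libraries labelled Lbx1Δ/Δ and 49 and 59 in WT.

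Of the other single-accession genes of this list, those named here had at most 26 counts a library and went different ways. Gc, the vitamin D binding protein, had 2 and 2 counts in libraries 1 and 2 labelled Lbx1Δ/Δ, and 0 and 1 in WT libraries 1 and 2. Apoh, a phospholipid-binding plasma protein, had 0 counts in both libraries labelled Lbx1Δ/Δ, and 5 and 2 counts in WT libraries 1 and 2. Hpx, the haem carrier hemopexin, had 0 and 5 counts in libraries 1 and 2 labelled Lbx1Δ/Δ, and 6 and 2 counts in WT libraries 1 and 2. Ambp, the precursor of alpha-1-microglobulin and bikunin, had 2 and 8 counts in libraries 1 and 2 labelled Lbx1Δ/Δ, and 0 in both WT libraries. Itih3, another inhibitor heavy chain, had 8 and 19 counts in libraries labelled Lbx1Δ/Δ, and 8 and 6 in WT. Apom, a carrier of sphingosine phosphate, had 15 and 15 counts in libraries labelled Lbx1Δ/Δ, and 16 and 2 in WT. Serpina1e, a protease inhibitor gene with close paralogues, had 2 and 14 counts in libraries labelled Lbx1Δ/Δ, and 6 and 5 in WT. Igfbp1 had 11 and 8 counts in libraries labelled Lbx1Δ/Δ, and 26 and 14 in WT. F7 had 4 and 3 counts in libraries labelled Lbx1Δ/Δ, and 14 and 6 in WT. These genes were chosen after their values were seen. Of the 9 further secreted genes tested, Ttr included, 0 were called on genotype alone, 3 had a higher and 6 a lower fitted value, with a median log2 difference of −0.33.

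Of the 16 liver enzyme and receptor genes with 1 accession, 4 were at 0 in all libraries and 11 had fewer than 10 counts in total, while the 4 with several accessions had fewer than 10 each. Arg1, the arginase of the urea cycle, which macrophages also express, held most of the reads. It had 357 and 166 counts in libraries 1 and 2 labelled Lbx1Δ/Δ, and 273 and 141 counts in WT libraries 1 and 2. Arg1 was thus lower in number 2 in both groups. Cps1 is the mitochondrial entry enzyme of the urea cycle. It had 12 and 30 counts in libraries 1 and 2 labelled Lbx1Δ/Δ, and 12 and 25 counts in WT libraries 1 and 2. Cps1 was higher in number 2, as Alb was and Arg1 was not, with little difference between groups. Of the enzyme and receptor genes 2 were tested and 0 called. Among liver transcription factors, Foxa3, a forkhead factor of gut and liver, had 0 counts in both libraries labelled Lbx1Δ/Δ, and 3 and 2 in WT. All of its values lie at or under the limit of 3 counts, so nothing is read from them. Hnf4a, Cebpa and Nr1h4 were at 0 in all libraries, but each has several accessions. Onecut2, Foxa1, Hhex and Onecut1 led that list, and Onecut and Foxa1 factors are also known from neurons and the floor plate. Of its 5 tested genes, 0 were called.

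Erythroid genes, which mark red cell precursors of fetal liver and circulating blood, summed to 6055 and 2663 CPM in libraries 1 and 2 labelled Lbx1Δ/Δ, and to 8438 and 2849 CPM in WT libraries 1 and 2. All 11 that were tested had lower fitted values in libraries labelled Lbx1Δ/Δ (median log2 difference −0.26, 0 called), and all 11 were lower in number 2 in both groups, where Alb was higher. Within number 2, Gata1, Ermap and Slc4a1 were higher in the library labelled Lbx1Δ/Δ, by ratios of 1.75, 1.32 and 1.17. The other tested ones were lower there. The matching shares of all tested genes are not given here, so nothing is read from these counts. Embryonic globin genes, Hbb-bh1 among them, held most of the erythroid sum. The adult globin genes in that list had 0 counts in all libraries, and nothing is read from this. The sum therefore does not separate fetal liver from circulating blood. Hbb-bh1 had 11020 and 1717 counts in libraries 1 and 2 labelled Lbx1Δ/Δ, and 16872 and 2287 counts in WT libraries 1 and 2. Myeloid and megakaryocyte genes summed to 74.8 and 42.0 CPM in libraries labelled Lbx1Δ/Δ, and to 79.7 and 46.3 CPM in WT, and 0 of 5 tested were called.

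The 5 visceral endoderm genes in the files summed to 26.3 and 26.5 CPM in libraries 1 and 2 labelled Lbx1Δ/Δ, and to 26.4 and 31.2 CPM in WT libraries 1 and 2, nearly all of it Lrp2 and Cubn, endocytic receptors that other epithelia also use. Amn, the partner of Cubn and a gene of visceral endoderm, had 2 and 12 counts in libraries labelled Lbx1Δ/Δ, and 4 and 7 in WT. Gut, lung and pancreas endoderm genes summed to 10 and 13 counts in libraries 1 and 2 labelled Lbx1Δ/Δ, against 31 and 24 counts in WT libraries 1 and 2. Mesothelial genes, which mark the lining of the body cavity and liver surface, summed to 15.2 and 2.02 CPM in libraries labelled Lbx1Δ/Δ, and to 30.5 and 11.2 CPM in WT, and thus were lowest in the library with the most Alb. Of the 2 visceral endoderm and 4 mesothelial genes tested, 0 were called on genotype alone. With a replicate block 1 mesothelial gene, Wt1, was called lower, against 0.586% of all tested genes (log2 difference −1.74, edgeR adjusted p = 0.0196). Wt1 is a zinc finger factor also expressed in the developing urogenital tract. The labels do not pair the replicate numbers that this block uses.

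In the neural tube list the libraries fell in the same order as for Alb and Afp, as they did for the oligodendrocyte list, for Vtn and for the liver enzymes without Arg1. With Arg1 the enzyme list took another order. It summed to 22.6 and 13.1 CPM in libraries 1 and 2 labelled Lbx1Δ/Δ, and to 14.9 and 10.6 CPM in WT. The neural list summed to 4987 and 8102 CPM in libraries 1 and 2 labelled Lbx1Δ/Δ, and to 4641 and 7052 CPM in WT libraries 1 and 2, with number 2 above number 1 by 1.62-fold in the group labelled Lbx1Δ/Δ and by 1.52-fold in WT. Elavl3, an RNA-binding protein of neurons, was at 506 and 1047 CPM in libraries labelled Lbx1Δ/Δ and at 437 and 834 CPM in WT. Mesenchymal genes summed to 4355 and 4164 CPM in libraries labelled Lbx1Δ/Δ, and to 6130 and 4661 CPM in WT. Of 8 neural and 5 mesenchymal genes tested, 0 were called. The oligodendrocyte list, included because mature oligodendrocytes express Trf, summed to 131 and 154 CPM in libraries labelled Lbx1Δ/Δ, and to 117 and 134 CPM in WT, with 0 of 3 called. The part of these tissues in the levels of the members was not tested.

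**Figure D4:**
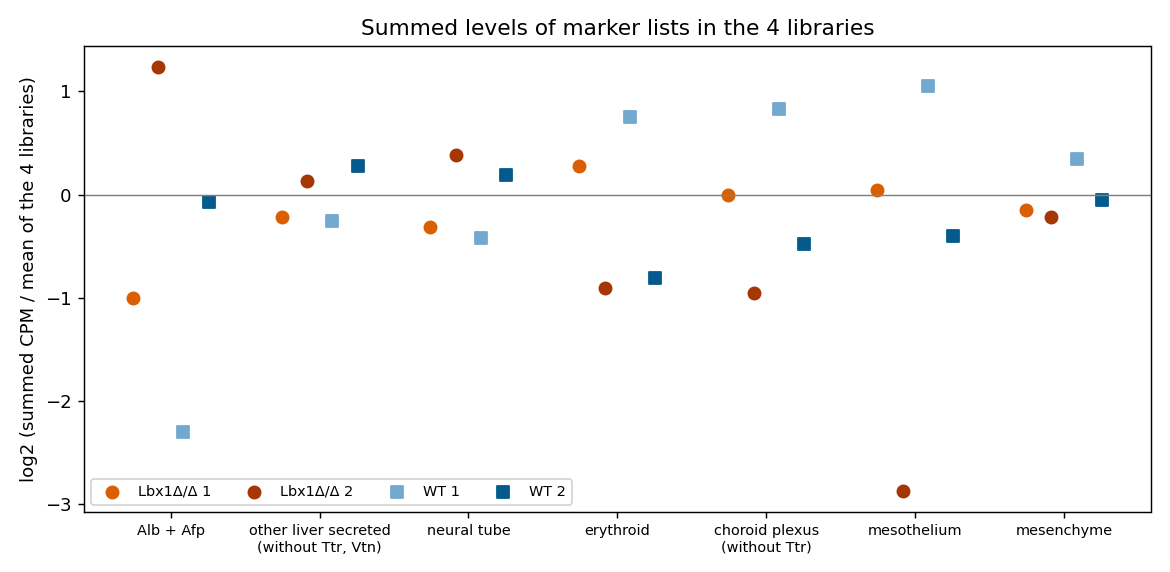
Summed CPM of each marker list in each library, as log2 of its ratio to the mean of the 4 libraries; circles are libraries labelled Lbx1Δ/Δ and squares are WT. The choroid plexus list is shown without Ttr, and the other liver secreted genes without Ttr and Vtn. Alb and Afp are highest in library 2 labelled Lbx1Δ/Δ, where erythroid, choroid plexus and mesothelial genes are lowest. Erythroid genes are nearly as low in WT library 2. Alb was picked for its difference, so nothing is read from the gap between its sum and the other lists.

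By the root mean square distance between centred log2 levels over the 4 libraries, the 8 genes most like the sum of the members were Tmem151b, Zfp57, Zfp398, Jag2, Slc9a9, 2700081O15Rik, Chat and Dmrta2, at distances of 0.0080 to 0.042. Such likeness was common, with 209 of 10753 genes within 0.1 and 7137 within 0.5. For the profile of Alb, 0 genes lay within 0.1 and 26 within 0.5. The 8 nearest to Alb, a comparison chosen after the values were seen, were Kcnc2, 5730488B01Rik, Pcdha8, Ptger2, Zbtb7c, Fam222b, Slc12a5 and Ank2, at distances of 0.14 to 0.31. Kcnc2, the nearest, had 6 and 34 counts in libraries 1 and 2 labelled Lbx1Δ/Δ, and 2 and 13 counts in WT libraries 1 and 2. Ank2, the last of the 8, had 11 and 59 counts in libraries labelled Lbx1Δ/Δ, and 6 and 20 counts in WT. These profiles rest on 4 libraries, with counts as low as 1 in Pcdha8 and Slc12a5. Nothing is read from them about cell types.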

How the data were processed

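The authors deposited raw read counts for RefSeq transcripts in 4 libraries, with no normalization to judge by the whole-number values and unequal totals. Per the submitters' processing notes, the authors used TopHat2 2.1.1, featureCounts and edgeR with genome build mm9. How strand was set and how reads shared by transcripts were treated is not given in the sources used here.

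Counts of a symbol's accessions were summed over RefSeq names of GRCm38 (41218 of 41411 accessions) and GENCODE M21 names (97), with 96 accessions unnamed, which gave 24971 genes. GRCm38 served only for names, neighbouring genes, transcript lengths and promoter windows. Levels are CPM relative to the library total, the scale on which the members were chosen. Centred log2 levels had 0.5 counts added. Genes passing filterByExpr (minimum count 10, minimum total 15) were fitted with TMM scaling, glmQLFit and glmQLFTest (edgeR 4.0.16, R 4.3.3) on genotype, two-sided, with Benjamini-Hochberg adjustment at 0.05. SE was taken as the fitted difference over the square root of F. DESeq2 1.42.0 and limma 3.58.1 were alternatives. The fit was tested on simulated data.

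The members and gene lists were chosen with earlier results of these data known. Named were the members, Ttr, up to 4 genes with the highest level per list, the liver-specific transcription factors and the nearest 8 genes by profile. Names outside that rule (Gc, Apoh, Hpx, Ambp, Itih3, Apom, Serpina1e, Igfbp1, F7, Clic6, Gata1, Ermap, Amn, Pax6, Elavl4, Dcx, the genes most like Alb and those named only for their accessions) were chosen after their values were seen. Rhox5 and Ahsp were not analysed here. A gene that the naming rule picked is not reported here.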

Additional observations from a re-analysis of the deposited data

How the results depend on the processing

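On genotype alone the count of called genes was 0 under RLE, upper-quartile and library-total scaling, in DESeq2 and limma-voom, with the low-count filter dropped or set to CPM above 1 in 2 libraries, and with each library left out (0 to 0). A replicate block gave 92. The labels do not pair the numbers. Same-numbered libraries deviated together (r = 0.62 across 10757 genes). With 2 libraries a group, exchanging the numbers in 1 group would only reverse the sign of r, so this cannot show pairing. The log2 ratio of the summed members was 0.21 and became 1.17 without Trf, by construction free of the gene that holds most counts. Within numbers, as in a replicate block, it averaged 0.15. It was 0.04 without Alb, 0.58 as a mean over members and 0.19 with TMM scaling, and −0.30 to 0.58 with each library left out, the lowest without library 2 labelled Lbx1Δ/Δ. The sums without Trf, and without Trf and Alb, were chosen after seeing the data and ranged from −0.14 to 2.23 and from −0.36 to 1.40 with each library left out. The fitted log2 difference of Ttr ranged from −6.47 to 0.28 in the same way, positive without WT library 1. Apart from Alb, Afp and Trf, the members had at most 16 counts a library, so changes in them were not detectable at this depth unless large.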
